A study of Mus musculus with 7 samples.

Results

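The genes described here are 10 regulators that hold a cell in, or release it from, the G1 phase of the cell cycle, as measured in whole fetal testis of the mouse. They were taken by symbol from a table of 24739 gene rows (24189 different symbols), and each of the 10 had 1 row. They comprise 4 genes of cyclin-dependent kinase (CDK) inhibitors (*Cdkn1a*, *Cdkn1b*, *Cdkn2a* and *Cdkn2b*), 4 G1 cyclin genes (*Ccnd1*, *Ccnd2*, *Ccnd3* and *Ccne1*) and 2 genes of the retinoblastoma family (*Rb1* and *Rbl1*). RNA-Seq libraries came from embryos on a C57BL/6 background at E14.5. Each library held 1 pair of testes, 3 labelled wild-type and 4 homozygous for *Glis3* zf5, an allele that lacks exon 4 sequence and parts of the introns beside it and so disrupts the DNA-binding domain of the transcription factor GLIS3. The mutation was present in every cell of the mutant embryos, and the labels give no treatment. Total RNA was depleted of ribosomal RNA and was not selected for poly-A tails, and whole testis was used without a sort, so germ cells, Sertoli cells, Leydig cells and other somatic cells all contributed.

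Cells enter S phase after cyclins D and E activate CDKs, which phosphorylate the retinoblastoma proteins and release E2F transcription factors. CDK inhibitors of the Cip/Kip class (*Cdkn1* genes) bind cyclin-CDK complexes, and those of the INK4 class (*Cdkn2* genes) bind CDK4 and CDK6. In the fetal testis, male germ cells leave the mitotic cycle at G1/G0 around this stage, with retinoblastoma protein and p27, the product of *Cdkn1b*, among the known factors, while Sertoli cells go on dividing.

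*Glis3*, the targeted gene, had 7.63, 6.89 and 2.91 FPKM (fragments per length of transcript and per size of library) under the wild-type label, replicates 1 to 3, against 3.86, 3.26, 2.90 and 2.66 FPKM in mutant replicates 1 to 4. The library labelled wild-type replicate 3 was thus at the level of the mutants, although FPKM also covers exons that the allele retains. By qPCR, the paper reported *Glis3* mRNA of wild-type fetal testes to be back at baseline by E14.5. Why this library was low was not tested. *Glis3* had a log2 fold change of -0.69 (SE, the standard error, 0.28, adjusted p = 0.268 from limma). Without the library labelled wild-type replicate 3 it was -1.09 (adjusted p = 0.00985 from limma). That library had the lowest *Glis3* FPKM of its group, so a larger difference without it was fixed in advance. Without wild-type replicate 1 or 2 the log2 fold change was -0.46 or -0.53 (adjusted p = 0.570 or 0.408 from limma). The libraries held between 3454317 and 4670830 reads on retrotransposons, while fragments behind single FPKM values were not given in the sources used here. Markers listed for the cell types of the testis were present: the summed FPKM of 12 germ cell genes was 1739, 1268 and 882 under the wild-type label and 713 to 807 in the mutant libraries. All 12 had a log2 fold change below 0, none was listed under 0.1 FPKM, and 9 had an unadjusted p under 0.05 from limma, where 8.79% of all genes tested did in this direction. The sums were 1036 to 1310 and 1261 to 1440 FPKM for 10 Sertoli cell genes (9 above 0), and 1654 to 2724 and 2578 to 3155 FPKM for 6 fetal Leydig cell genes (all 6 above 0). Of these, 1 Sertoli cell gene and 5 Leydig cell genes were higher at an unadjusted p under 0.05, against 8.21% of all genes. The sums of 6 interstitial genes were 506, 605 and 507 FPKM under the wild-type label, replicates 1 to 3. They were 629, 713, 569 and 613 FPKM in mutant replicates 1 to 4. All 6 log2 fold changes were above 0, none at an unadjusted p under 0.05. Mutant replicates 1 and 2 were highest, as in *Cdkn1b* below, but wild-type replicate 2 was above mutant replicate 3, unlike in *Cdkn1b*. Skeletal muscle sums (5 genes) ranged from 2.16 to 38.3 FPKM over the 7 libraries. The part of these markers in the values below was not tested. In whole testis, fewer cells of a type and less RNA per cell cannot be told apart.

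The promoters of *Cdkn1b*, the gene with the lowest p-value of the 10, and of *Cdkn2a*, whose FPKM row spans more than 1 start, are shown as the 250 bases before each RefSeq start (GRCm38.p6, 5′ to 3′ on the strand of the gene), with matches to CCAAT or to the E2F forms TTTCCCGC, TTTCGCGC, TTTGGCGC and TTTGCCGC in capitals. The sequence of *Rbl1*, a gene known to be controlled by E2F, is shown beside them. *Cdkn1a* and *Ccnd3* also had more than 1 start, and their sequences are not shown.
*Cdkn1b*, chr6:134920151-134920400, plus strand: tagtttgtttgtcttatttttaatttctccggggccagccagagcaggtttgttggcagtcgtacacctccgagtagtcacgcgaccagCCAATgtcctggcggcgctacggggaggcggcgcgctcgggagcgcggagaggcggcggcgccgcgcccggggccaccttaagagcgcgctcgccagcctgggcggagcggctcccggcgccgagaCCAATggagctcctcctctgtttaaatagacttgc
*Cdkn2a*, upstream start, chr4:89294620-89294869, minus strand: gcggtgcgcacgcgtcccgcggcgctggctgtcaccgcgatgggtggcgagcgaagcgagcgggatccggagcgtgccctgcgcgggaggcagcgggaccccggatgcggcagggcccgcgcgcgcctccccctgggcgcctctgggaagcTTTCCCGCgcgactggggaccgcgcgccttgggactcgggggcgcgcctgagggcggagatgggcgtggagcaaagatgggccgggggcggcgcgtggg
*Cdkn2a*, downstream start, chr4:89282193-89282442, minus strand: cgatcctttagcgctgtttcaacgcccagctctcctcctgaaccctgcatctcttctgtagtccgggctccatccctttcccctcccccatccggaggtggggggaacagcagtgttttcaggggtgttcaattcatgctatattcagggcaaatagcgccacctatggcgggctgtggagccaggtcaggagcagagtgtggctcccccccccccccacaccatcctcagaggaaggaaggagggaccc
*Rbl1*, chr2:157204535-157204784, minus strand: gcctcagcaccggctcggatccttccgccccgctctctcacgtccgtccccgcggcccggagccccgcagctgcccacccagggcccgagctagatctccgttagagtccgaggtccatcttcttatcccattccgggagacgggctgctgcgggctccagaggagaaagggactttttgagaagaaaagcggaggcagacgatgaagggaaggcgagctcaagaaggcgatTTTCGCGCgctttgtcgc
In *Cdkn1b*, CCAAT began 161 and 35 bases before the start. An E2F form began 99 bases before the upstream start of *Cdkn2a* and 18 bases before that of *Rbl1*. Windows for 7 of the 10 genes were matched, with 10 starts in all; those of *Ccnd1*, *Ccnd2* and *Rb1* were not analysed here. Counted on both strands in windows that also held 50 bases after the start, an E2F form was present in 2 of the 10 windows and in 2.26% of 32851 windows of all genes. CCAAT was present in 3 of the 10 windows and in 37.4% of all windows. The letters TGGGGGGT, a core to which GLIS proteins are known to bind, were present in 0 of the 10 windows and in 1.53% of all windows. A match is a description of the sequence and was not tested as a site of binding.

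The question was whether RNA of these regulators differed between wild-type and *Glis3* mutant testes. None of the 10 passed an adjusted p of 0.05 from limma, against 1 of 13988 genes tested (0.00715%). All 10 genes had a mean of at least 0.5 FPKM and were tested. At an unadjusted p under 0.05 there was 1 gene, *Cdkn1b*, where 17.0% of all genes tested were (8.21% with the mutant libraries higher and 8.79% lower). *Cdkn1b* was also the only gene of the 10 in which the groups did not overlap, against 14.9% of all genes (7.31% with the mutant libraries higher and 7.59% lower). Log2 fold changes, mutant minus wild-type on the scale of log2(FPKM + 0.5), were above 0 in 6 genes and below 0 in 4, and 52.1% of all genes were above 0. Their median was 0.01, and that of all genes tested was also 0.01. With all 7 libraries, the 95% interval of each of the 10 genes lay between -1 and 1 on the log2 scale. For *Cdkn2a* this did not hold under other settings, where the lower bound reached -1.18 without the library labelled wild-type replicate 3 and -1.13 with a pseudocount of 0.1. This scale understates changes of genes with low FPKM.

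**Figure D1:**
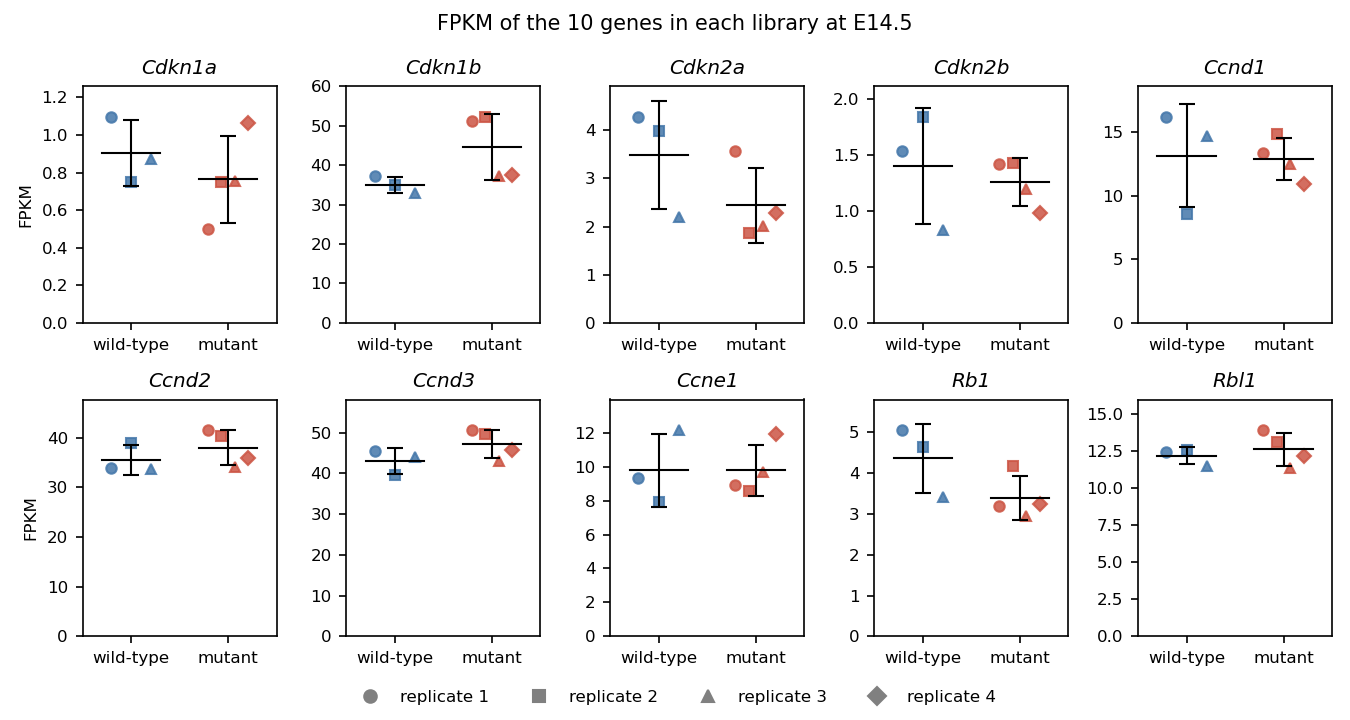
FPKM (vertical axis, from 0, with its own scale for each gene) of the 10 genes in the 3 libraries labelled wild-type (blue) and the 4 mutant libraries (red). Symbols mark replicate numbers, horizontal lines the means and bars the SD; the groups overlap in every gene but *Cdkn1b*, in which mutant replicates 1 and 2 stand above 50 FPKM.

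*Cdkn1b* encodes p27, which holds cyclin E-CDK2 inactive in cells at rest. Its locus in mm10, the build of all gene positions given here, is on the plus strand of chromosome 6 (134920401 to 134925525). Its level was 37.18, 34.85 and 33.03 FPKM under the wild-type label, replicates 1 to 3, against 51.31, 52.23, 37.23 and 37.55 FPKM in mutant replicates 1 to 4. Mutant replicates 1 and 2 were high, while mutant replicates 3 and 4 lay next to wild-type replicate 1, and the gap between the groups was 0.048 FPKM. The means were 35.02 ± 2.08 FPKM (SD, n = 3) and 44.6 ± 8.31 FPKM (SD, n = 4). On the log2 scale the difference was 0.33 (SE 0.14, 95% interval 0.02 to 0.64, unadjusted p = 0.0404 and adjusted p = 0.275 from limma). Over all alternatives it was between 0.25 and 0.41, with adjusted p-values from 0.218 to 0.469. The difference was therefore not past the threshold under any of them, and the SD of the mutant libraries was close to the difference of the means. Its 95% interval included 0 without a filter (-0.003 to 0.66). This also held when wild-type replicate 1, 2 or 3 or mutant replicate 1 or 2 was left out.

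*Cdkn1a* encodes p21, the inhibitor induced by p53, and lies on chromosome 17 from 29090986 to 29100722. It had the lowest level of the 10 genes, with 1.10, 0.751 and 0.871 FPKM under the wild-type label and 0.497, 0.749, 0.753 and 1.06 FPKM in the mutant libraries. The groups overlapped, and only 1 mutant library was above the wild-type mean. The log2 fold change was -0.16 (SE 0.17, 95% interval -0.56 to 0.23, adjusted p = 0.664 from limma). It was -0.05 without mutant replicate 1, -0.07 without wild-type replicate 1 and -0.27 without mutant replicate 4.

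*Cdkn2a* and *Cdkn2b* are neighbors on chromosome 4, from 89274473 to 89294619 and from 89306289 to 89311032, both on the minus strand. *Cdkn2a* encodes p16INK4a and, from the upstream start and in another reading frame, p19ARF, which stabilizes p53; its FPKM row did not separate them. *Cdkn2a* had 4.28, 3.99 and 2.19 FPKM under the wild-type label, replicates 1 to 3, against 3.58, 1.88, 2.02 and 2.29 FPKM in mutant replicates 1 to 4. Wild-type replicates 1 and 2 and mutant replicate 1 were high, and the library labelled wild-type replicate 3 was within the range of the other mutant libraries. This gave a log2 fold change of -0.43 (SE 0.25, 95% interval -0.99 to 0.13, adjusted p = 0.405 from limma). Without the library labelled wild-type replicate 3 it was -0.69 (adjusted p = 0.105), and without wild-type replicate 1 it was -0.28 (adjusted p = 0.708). *Cdkn2b*, which encodes p15INK4b, had 1.54, 1.84 and 0.83 FPKM under the wild-type label and 1.42, 1.43, 1.20 and 0.986 FPKM in the mutant libraries. The library labelled wild-type replicate 3 was the lowest of all 7, so the mutant values lay inside the wild-type range. The log2 fold change of *Cdkn2b* was -0.08 (SE 0.20, 95% interval -0.54 to 0.38, adjusted p = 0.869 from limma). Leaving out wild-type replicate 2 brought it to 0.09, and without the library labelled wild-type replicate 3 it was -0.32.

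FPKM is scaled to transcript length, so levels may be set beside each other within a family. *Cdkn1b* held 84.1% to 89.5% of the summed FPKM of the 4 inhibitors under the wild-type label, and 89.6% to 92.8% in the mutant libraries. When the other 3 inhibitors in the table, *Cdkn1c*, *Cdkn2c* and *Cdkn2d*, were added, *Cdkn1c*, which encodes p57, held the most, with 52.7% to 65.7% over the 7 libraries. *Cdkn1b* held 16.9% to 24.9% of that sum, and *Cdkn1a*, *Cdkn2a* and *Cdkn2b* each held less than *Cdkn2c* in every library. The levels of p27 and p57 RNA thus stood far above those of the INK4 genes at the *Cdkn2a* and *Cdkn2b* locus.

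D-type cyclins bind CDK4 and CDK6 and carry growth signals into G1. *Ccnd1* (chromosome 7, 144929931 to 144939925, minus strand) had 16.2, 8.60 and 14.7 FPKM under the wild-type label and 13.4, 14.9, 12.5 and 10.9 FPKM in the mutant libraries. Wild-type replicate 2 was the lowest library and wild-type replicate 1 the highest, so all 4 mutant values lay between them. Its log2 fold change was 0.01 (SE 0.20, 95% interval -0.45 to 0.47, adjusted p = 0.983 from limma), and it turned to -0.26 without wild-type replicate 2, to -0.01 without mutant replicate 1 and to -0.06 without mutant replicate 2. *Ccnd2* (chromosome 6, 127125709 to 127151048, minus strand), a cyclin gene used by dividing gonadal cells, had 33.9, 39.0 and 33.7 FPKM under the wild-type label and 41.5, 40.4, 34.2 and 35.9 FPKM in the mutant libraries. The groups overlapped, with 3 mutant libraries above the wild-type mean. Its log2 fold change was 0.09 (SE 0.09, 95% interval -0.11 to 0.30, adjusted p = 0.614 from limma), and it lay between 0.05 and 0.16 with single libraries left out.

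*Ccnd3* (chromosome 17, 47505051 to 47599688, plus strand) had the highest mean level of the 10 genes. Its level was 45.6, 39.6 and 44.0 FPKM under the wild-type label and 50.6, 49.7, 43.0 and 45.7 FPKM in the mutant libraries. Mutant replicates 1 and 2 were again the highest, and mutant replicate 3 lay below wild-type replicate 1. *Ccnd3* had a log2 fold change of 0.13 (SE 0.08, 95% interval -0.05 to 0.31, adjusted p = 0.426 from limma), and 0.07 without wild-type replicate 2. Of the summed FPKM of the 3 D-type cyclins, *Ccnd3* held 45.4% to 49.4%, *Ccnd2* 35.4% to 44.7% and *Ccnd1* 9.87% to 16.9% over the 7 libraries. The makeup varied most among the libraries labelled wild-type, where replicate 2 had the lowest share of *Ccnd1* and the highest of *Ccnd2*.

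**Figure D2:**
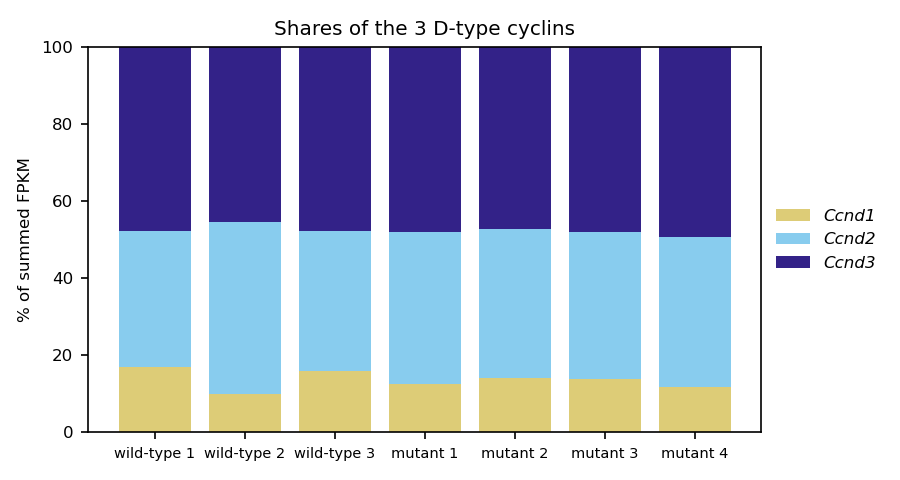
Shares of *Ccnd1*, *Ccnd2* and *Ccnd3* in their summed FPKM (vertical axis, percent) in each of the 7 libraries. *Ccnd3* is the largest part of every bar (45.4% to 49.4%), and *Ccnd1* the smallest (9.87% to 16.9%).

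*Ccne1*, which encodes cyclin E1, the partner of CDK2 at entry into S phase, lies on chromosome 7 from 38097984 to 38107490 on the minus strand. It had 9.35, 7.90 and 12.1 FPKM under the wild-type label and 8.92, 8.58, 9.69 and 11.9 FPKM in the mutant libraries. The libraries labelled wild-type held both the lowest and the highest value. The means were 9.79 ± 2.15 FPKM (SD, n = 3) and 9.78 ± 1.51 FPKM (SD, n = 4), with a log2 fold change of 0.01 (SE 0.16, 95% interval -0.35 to 0.36, adjusted p = 0.985 from limma). Its sign turned when wild-type replicate 1 (-0.01), wild-type replicate 2 (-0.13) or mutant replicate 4 (-0.09) was left out.

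*Rb1*, the retinoblastoma gene, restrains E2F in cells that leave the cycle. It lies on chromosome 14 from 73195502 to 73325791 on the minus strand, and had 5.04, 4.62 and 3.40 FPKM under the wild-type label, replicates 1 to 3, against 3.18, 4.17, 2.95 and 3.23 FPKM in mutant replicates 1 to 4. Wild-type replicates 1 and 2 were the highest, all 4 mutant libraries were below the wild-type mean, and mutant replicate 2 was above the library labelled wild-type replicate 3. The means were 4.35 ± 0.848 FPKM (SD, n = 3) and 3.38 ± 0.536 FPKM (SD, n = 4). For *Rb1* the log2 fold change was -0.32 (SE 0.15, 95% interval -0.66 to 0.03, adjusted p = 0.331 from limma). Without the library labelled wild-type replicate 3 it was -0.47 with an adjusted p of 0.0949, the lowest of any of the 10 genes under any alternative. In *Rb1* and *Cdkn2a*, as in the summed germ cell markers given above, wild-type replicates 1 and 2 were above the library labelled wild-type replicate 3. The same order was present in *Cdkn1b*, *Cdkn2b*, *Ccnd2* and *Rbl1*, so it was not particular to *Rb1* and *Cdkn2a*. The part of those markers in these values was not tested.

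*Rbl1*, which encodes p107, a relative that binds the repressive E2F factors, lies on chromosome 2 from 157145894 to 157204534 on the minus strand. It had 12.4, 12.6 and 11.5 FPKM under the wild-type label and 13.9, 13.1, 11.3 and 12.1 FPKM in the mutant libraries. The mutant range enclosed the wild-type one, and the highest library was 1.23 times the lowest, the smallest spread of the 10 genes. *Rbl1* had a log2 fold change of 0.05 (SE 0.08, 95% interval -0.15 to 0.24, adjusted p = 0.811 from limma), 7.8e-05 without mutant replicate 1 and 0.01 without the library labelled wild-type replicate 3. *Rbl1* held 48.1% to 53.3% of the summed FPKM of the 3 pocket proteins, *Rbl2* 31.1% to 37.5%, and *Rb1* 14.7% to 19.5% under the wild-type label and 12.2% to 15.9% in the mutant libraries. The ranges of *Rb1* overlapped, and p107 RNA was the most abundant of the family in every library.

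Over the 7 libraries, the mean levels ran from *Ccnd3* (45.4 FPKM) through *Cdkn1b* (40.5), *Ccnd2* (36.9), *Ccnd1* (13.0), *Rbl1* (12.4), *Ccne1* (9.79), *Rb1* (3.80), *Cdkn2a* (2.89) and *Cdkn2b* (1.32) to *Cdkn1a* (0.826). Of the neighbors in this order, the ranges were separate only between *Ccnd2* and *Ccnd1*, between *Ccne1* and *Rb1*, and between *Cdkn2a* and *Cdkn2b*. The ranges of the other neighbors overlapped. Within libraries, *Rbl1* was above *Ccne1* and *Rb1* above *Cdkn2a* in 6 of 7, and the remaining pairs kept this order in 4 or 5 of 7. The spread between libraries was largest in *Cdkn2a*, where the highest value was 2.28 times the lowest, in *Cdkn2b* (2.22 times) and in *Cdkn1a* (2.203 times), all 3 at low FPKM.

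**Figure D3:**
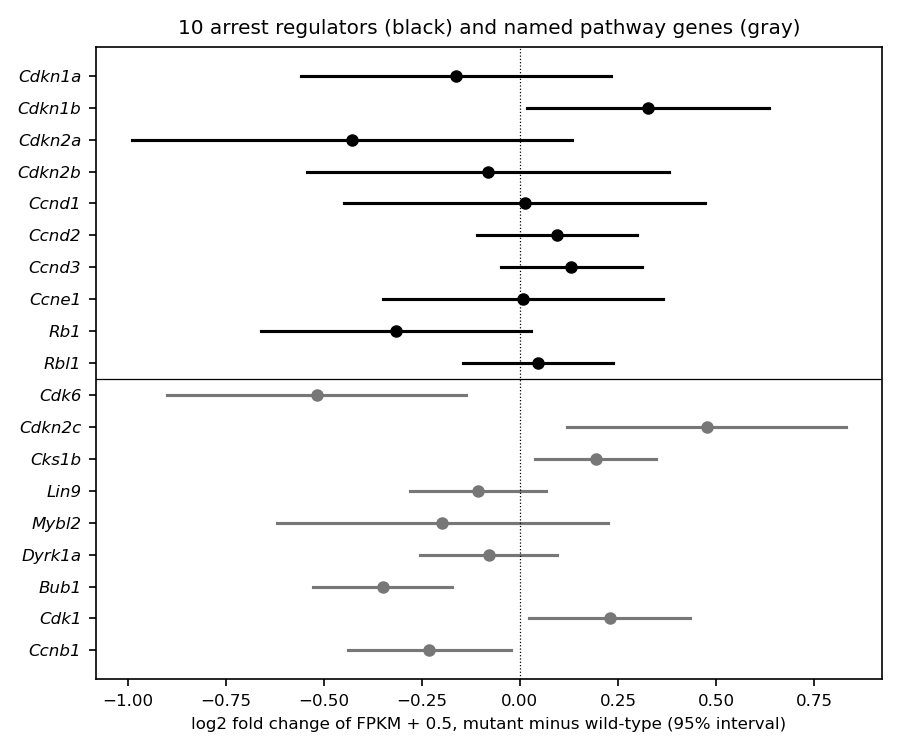
Log2 fold changes of FPKM + 0.5, mutant minus wild-type (horizontal axis), with 95% intervals from limma, for the 10 genes (black) and 9 named genes of the pathway lists (gray). *Cdkn1b* is the only black interval that leaves out 0 (0.02 to 0.64).

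Since the libraries hold RNA without poly-A tails, reads of retrotransposons that lie inside a gene give another readout of its locus. LINE, SINE and LTR reads were summed inside each gene body, and differences were tested with edgeR; elements inside exons count mRNA, and those in introns count unspliced RNA or transcripts of the elements. By this readout, 1 of 12884 genes (0.00776%) passed an adjusted p of 0.05, and none of the 7 genes of the set that were tested did. None of the 7 had an unadjusted p under 0.05, where 12.5% of all genes did. *Cdkn2a*, *Cdkn2b* and *Ccnd1* held 16, 42 and 29 reads in all and were under the filter of a mean of 10 reads. *Glis3* itself had 146 ± 38.4 CPM (counts scaled to library size; SD, n = 3) under the wild-type label and 79.5 ± 12.1 CPM (SD, n = 4) in the mutant libraries, with no overlap (log2 fold change -0.88, adjusted p = 0.0796 from edgeR).

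*Rb1* held the most reads, 2452, of which 2406 lay outside of exons. They amounted to 106, 100.5 and 81.7 CPM under the wild-type label, replicates 1 to 3, and 83.5, 97.6, 71.3 and 71.9 CPM in mutant replicates 1 to 4. The 3 highest libraries, wild-type replicates 1 and 2 and mutant replicate 2, were also the 3 highest in *Rb1* FPKM, and the groups overlapped in both. This corresponds to a log2 fold change of -0.25 (unadjusted p = 0.0677, adjusted p = 0.441 from edgeR).

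In *Cdkn1b*, all 585 reads lay in 1 B1_Mur3 element (chromosome 6, 134922617 to 134922772), in an exon of the transcript *Cdkn1b-202* that is annotated as UTR. They amounted to 18.0, 20.1 and 19.3 CPM under the wild-type label and 19.4, 23.01, 24.4 and 24.7 CPM in mutant replicates 1 to 4. Mutant replicates 3 and 4, the lower of the mutant libraries in FPKM, were the highest here, and mutant replicate 1 was within the wild-type range. The log2 fold change was 0.26 (adjusted p = 0.503 from edgeR), so both readouts of *Cdkn1b* were above 0 but ranked the mutant libraries differently.

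*Ccne1* was the only tested gene of the set whose groups did not overlap in this readout, where 10.5% of all genes did not (5.2% with the mutant libraries higher and 5.28% lower). Its elements had 8.41, 8.31 and 8.59 CPM under the wild-type label and 8.75, 10.1, 9.44 and 11.01 CPM in the mutant libraries. The log2 fold change was 0.22 (adjusted p = 0.688 from edgeR), on 255 reads in all, and the FPKM of *Ccne1* did overlap. The other genes had log2 fold changes of -0.13 (*Cdkn1a*, 103 reads), 0.16 (*Ccnd2*, 125 reads), -0.06 (*Ccnd3*, 465 reads) and 0.10 (*Rbl1*, 1815 reads), with adjusted p-values between 0.708 and 0.948 from edgeR. These values turned sign in *Cdkn1a* without wild-type replicate 1 (0.23) or mutant replicates 1 (0.05) or 2 (0.03), and in *Ccnd3* without wild-type replicate 1 (0.26) or mutant replicate 3 (0.01). *Ccnd2* was at 0.02 without mutant replicate 4 and at 0.34 without mutant replicate 2. With elements outside of exons alone, *Ccne1* was at 0.11, *Ccnd3* at 0.01 and *Rbl1* at -0.04. In *Rbl1*, 1 PB1D10 element in an exon held 39.9% of the reads. Other genes overlap *Rb1*, *Ccnd1*, *Ccnd2* and *Ccnd3*, but 0 of the reads lay in elements inside the overlap; counting did not use strand.

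**Figure D4:**
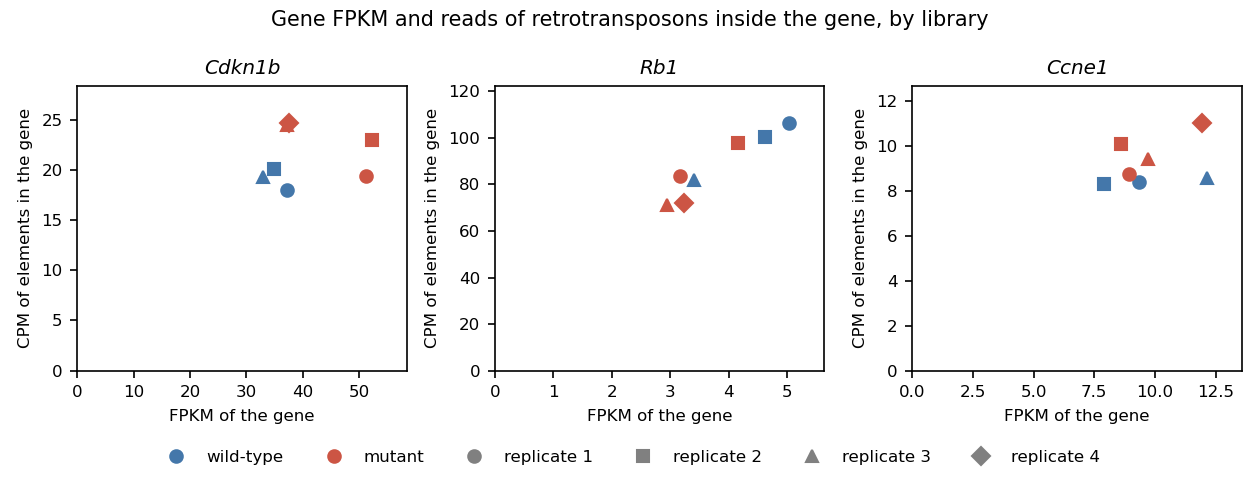
Reads of retrotransposons inside *Cdkn1b*, *Rb1* and *Ccne1* (vertical axis, CPM) against the FPKM of the gene (horizontal axis) in each library, wild-type in blue and mutant in red, with symbols for replicate numbers. In *Rb1* the 3 libraries highest in FPKM are the 3 highest in CPM, while in *Cdkn1b* mutant replicates 3 and 4 are highest in CPM and not in FPKM.

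The genes around these regulators were described by lists. Of 36 other genes of the G1/S transition (further inhibitors, kinases, cyclins, E2F factors and regulators of p27), 35 were tested and 0 passed the threshold, with 2 higher and 4 lower at an unadjusted p under 0.05 from limma. All genes tested gave 17.0% at this level. In 5 of the 35 the groups did not overlap (1 higher and 4 lower in the mutant libraries), where 14.9% of all genes did not, and the median log2 fold change was -0.02. *Cdk6*, a kinase partner of the D-type cyclins, had 5.97, 3.75 and 3.37 FPKM under the wild-type label and 2.70 to 2.92 FPKM in the mutant libraries (log2 fold change -0.52, adjusted p = 0.206 from limma). The groups did not overlap, and wild-type replicate 1 stood highest; without it, the log2 fold change was -0.29. *Cdkn2c*, which encodes the inhibitor p18INK4c, had 6.49, 9.34 and 5.35 FPKM against 9.32 to 10.05 FPKM, with an overlap through wild-type replicate 2 (0.48, adjusted p = 0.2096, and 0.31 without the library labelled wild-type replicate 3). *Cks1b*, a subunit of the ligase that degrades p27, had 189.6 to 219.98 FPKM against 230.3 to 241 FPKM, with no overlap (0.19, adjusted p = 0.224).

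The DREAM form of the MuvB complex represses cell cycle genes at rest together with p107 and p130. Of the 8 genes listed for MuvB/DREAM, *Mybl2*, *Foxm1* and the kinase gene *Dyrk1a* do not encode parts of this repressive form. The 8 gave no gene under an unadjusted p of 0.05 from limma and none without overlap, with a median log2 fold change of -0.03. The lowest p-values were those of *Lin9* (-0.11, adjusted p = 0.501 from limma), *Mybl2* (-0.20, adjusted p = 0.613, and 0.05 without wild-type replicate 1) and *Dyrk1a* (-0.08, adjusted p = 0.629). Among 30 proliferation genes, 0 passed the threshold, 1 was higher and 3 were lower at an unadjusted p under 0.05 (8.21% and 8.79% of all genes), and the median was also -0.03. In 3 of the 30 the groups did not overlap, against 14.9% of all genes. *Bub1*, a kinase of the spindle checkpoint, had 50.2, 51.8 and 42.4 FPKM under the wild-type label and 36.6 to 39.0 FPKM in the mutant libraries, with no overlap (-0.35, adjusted p = 0.168 from limma). Without the library labelled wild-type replicate 3, *Bub1* passed the threshold (-0.44, adjusted p = 0.0110 from limma). In that setting 720 of 13988 genes tested did, against 1 with all 7 libraries. How many of the 30 proliferation genes did was not counted. *Cdk1*, the mitotic kinase, had 83.0 to 99.6 FPKM against 101 to 122 FPKM (0.23, adjusted p = 0.257), while *Ccnb1*, its cyclin partner, had 36.3 to 44.0 against 29.8 to 36.2 FPKM (-0.23, adjusted p = 0.260). The groups of both did not overlap, with *Cdk1* higher and *Ccnb1* lower in the mutant libraries. *Cdk1* was at 0.15 without wild-type replicate 1, and *Ccnb1* at -0.15 without the library labelled wild-type replicate 3.

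**Figure D5:**
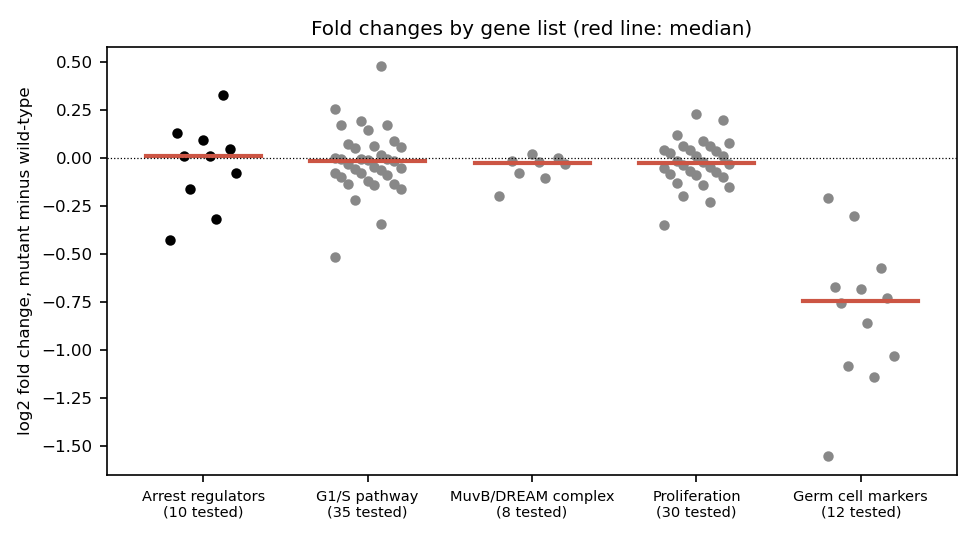
Log2 fold changes of FPKM + 0.5, mutant minus wild-type (vertical axis), for the 10 arrest regulators (black), 3 pathway lists and the germ cell markers (gray), 1 point per gene tested. Red lines are medians, which lie near 0 for the regulators (0.01) and the pathway lists (-0.02, -0.03 and -0.03) and at -0.74 for the germ cell markers.

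The 5 genes whose pattern over the 7 libraries was most like that of *Cdkn1b*, by the mean absolute difference of log2 values centered on each gene, were *Efna5* (0.0461), *Chst8* (0.0501), *Anxa6* (0.0523), *Col4a4* (0.0529) and *Kcns2* (0.0542). Being chosen for this pattern, each of the 5 had its highest values in mutant replicates 1 and 2, as *Cdkn1b* did. How many of all genes share these peaks was not counted. *Efna5*, which encodes an ephrin ligand, had 4.69, 4.70 and 4.20 FPKM under the wild-type label and 6.53, 6.62, 4.53 and 5.07 FPKM in the mutant libraries. *Anxa6*, which encodes an annexin that binds membranes, had 200.4, 194 and 199 FPKM against 277, 255, 202 and 206 FPKM.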

How the data were processed

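RNA-Seq data of 7 libraries of E14.5 testes, 3 labelled wild-type and 4 *Glis3* mutant, were used, with groups taken from the labels. In both table headers the names of wild-type replicate 3 and mutant replicate 1 are joined without a separator, so columns were read by position, in the order of the header names. Reads were aligned by the authors to mm10 with TopHat2 2.0.12 without strand. Cuffquant and Cuffnorm, run by the authors on gene models of RefSeq, gave the deposited FPKM values. The deposited counts, not normalized, were made by the authors with HTSeq-count from uniquely mapped reads, 1 value per RepeatMasker element. The labels list Cuffdiff 2.1.1, which needs alignments and was not used here. No column was left out.

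FPKM was analyzed as log2(FPKM + 0.5) with limma 3.58.1 (two-sided, eBayes with trend; R 4.3.3), keeping genes whose mean reached 0.5 FPKM. Counts of elements were summed inside RefSeq gene loci, annotated with GENCODE, and compared with edgeR 4.0.16 (quasi-likelihood, TMM, two-sided), keeping genes whose mean reached 10 reads. Benjamini-Hochberg adjustment was made over all genes tested, with a threshold of 0.05. Both tests were tried on simulated data. DESeq2 1.42.0 was used as an alternative for counts; the others were pseudocounts of 0.1 and 1, other filters and scalings, a replicate block and leaving out each library. The 10 genes and the lists were chosen with earlier results of these data known. Beside the 10 genes and *Glis3*, the 3 genes with the lowest p-value of each pathway list and the 5 genes most like *Cdkn1b* were named. Replicates are separate embryos.

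Depth was 3454317 to 4670830 retrotransposon reads per library, and the sums of FPKM were 694243 to 1018678. *Hba-a1* and *Pax2*, in the lists of blood and mesonephric genes, were listed under 0.1 FPKM.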

Additional observations from a re-analysis of the deposited data

Results flagged for a closer look

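The FPKM of *Cks1b*, which encodes a subunit of the ligase that degrades p27, was 231.6, 231.1 and 230.3 in mutant replicates 1 to 3 and 241.4 in mutant replicate 4. Mutant replicate 4 stood apart from the other 3, with a gap to its neighbor of 0.881 of the range of the group. In the 28 values tested this way, 1 was picked out, and chance picks out about 1 in 20 groups.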

How the results depend on the processing

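None of the 10 genes in FPKM, and none of the 7 tested in reads of elements, passed the threshold under any alternative run for them. Of the 227 alternative values, 212 kept the sign and 15 turned it. In FPKM, the replicate block and leaving out mutant replicate 4 gave the same log2 fold changes, and both are counted. With 1 library left out, log2 fold changes reached from -0.32 to 0.088 (*Cdkn2b*), -0.26 to 0.18 (*Ccnd1*) and -0.13 to 0.17 (*Ccne1*) in FPKM, and from -0.39 to 0.23 (*Cdkn1a*) and -0.22 to 0.26 (*Ccnd3*) in reads of elements. With elements outside of exons, chosen after seeing the data, *Ccnd3* was at 0.011 and *Rbl1* at -0.043. *Cdkn1a* and *Cdkn1b* were not run there. *Cdkn1a* and *Cdkn2b* had no value at a mean of at least 2 FPKM. *Glis3* ranged from -1.09 to -0.46 in FPKM and from -1.06 to -0.67 in reads with 1 library left out; in reads it passed the threshold with DESeq2 (-0.88), without a filter (-0.90), outside of exons (-0.84) and without the library labelled wild-type replicate 3 (-1.06).

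The number of genes past the threshold in FPKM was 1; it was 4 without a filter, 3 with quantile normalization, and 1 to 720 with 1 library left out. The 720 came without the library labelled wild-type replicate 3 (162 higher and 558 lower). In reads of elements it was 1; it was 49 with DESeq2, 3 with library size only, 53 without a filter, 27 outside of exons, and 0 to 147 with 1 library left out, the 147 again without that library and 21 without wild-type replicate 2. Where edgeR gave 0 with 1 library left out, 1040 to 1602 genes had an unadjusted p under 0.05. The cause was not tested.

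Deviations of same-numbered libraries from their group means correlated at 0.20, -0.18 and 0.23, and not every library correlated best with its own number. The 0.20 and 0.23 were the highest of all pairs of a wild-type and a mutant library. So few correlations do not settle whether same-numbered samples share more than a number. With the replicate block, limma called 0 genes (1726 at an unadjusted p under 0.05) and edgeR 0 (1176 at an unadjusted p under 0.05). The block changed no call of the 10 genes. *Cdkn1b* had an unadjusted p of 0.0063 there (adjusted p = 0.353 from limma). Mutant replicate 4 has no wild-type library of its number. The block in FPKM therefore gave the same log2 fold changes as leaving that library out, as in *Ccne1* (-0.087 in both). The fragments behind low FPKM, as in *Cdkn1a*, *Cdkn2a* and *Cdkn2b*, limit what can be seen in those genes.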
